A study of Mus musculus with 8 samples.

Results

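Lcn2, Chil1 and Slpi encode secreted proteins of innate defence, and their signals were compared between Nfkbiz KO and wild-type mouse keratinocytes that both carried an oncogenic RAS. They were picked by symbol from earlier results of the same arrays, where each was lower in the KO cells. The difference between the genotypes is therefore given as a description, with no test. Each is represented by 1 probe set whose annotation gives a single symbol, so they are 3 of the 9294 genes and 3 of the 11373 probe sets analysed, and no further probe set naming any of them among several genes was present. The KO RAS group held 4 arrays of Nfkbiz KO keratinocytes and the WT RAS group 4 arrays of wildtype keratinocytes. All cells were of the C57BL/6 strain, had been transduced with v-rasHa for 3 days and were grown in regular, unstarved medium. v-rasHa is a viral, activated form of Hras, and Nfkbiz encodes IkBz, a nuclear protein that assists NF-kB at a subset of its target genes. The labels call the 4 samples of each group biological replicates. The type of Nfkbiz allele, the number and age of the mice and the way v-rasHa was delivered are not stated in the labels. No cells without v-rasHa were analysed, so a difference that needs RAS and a difference present without it cannot be told apart. Nfkbiz itself was not analysed here, and the genotype rests on the labels.

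Epithelial cells secrete a first line of chemical defence when interleukin-1, interleukin-17 or microbial products activate NF-kB. Lipocalin-2, the product of Lcn2, binds siderophores and so withholds iron from bacteria, and its gene is a known target that requires IkBz in other cells. Chil1, also written Chi3l1, encodes a chitinase-like glycoprotein that binds chitin without cutting it and is secreted by macrophages, neutrophils and epithelia in inflammation. Slpi encodes the secretory leukocyte protease inhibitor, a small protein with whey acidic protein (WAP) domains that blocks neutrophil elastase and has antimicrobial activity. All 3 transcripts can also come from leukocytes, so leukocyte markers are given with the results.

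The promoters are shown because NF-kB and C/EBP factors are known to act on genes of this kind. The 3 genes were picked as lower in KO cells, so nothing about shared control is read from their common direction. Each sequence is the 250 bases before the RefSeq gene start on build GRCm38.p6, written 5′ to 3′ on the strand of the gene, and capitals mark the motif matches found. The Lcn2 stretch lies at chr2:32387740-32387989 on the minus strand, the Chil1 stretch at chr1:134181906-134182155 on the plus strand and the Slpi stretch at chr2:164356508-164356757 on the minus strand.
Lcn2: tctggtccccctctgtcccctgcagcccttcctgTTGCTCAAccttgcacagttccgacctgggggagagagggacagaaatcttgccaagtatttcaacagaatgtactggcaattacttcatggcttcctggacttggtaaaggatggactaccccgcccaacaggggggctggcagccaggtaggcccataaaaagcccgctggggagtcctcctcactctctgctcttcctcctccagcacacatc
Chil1: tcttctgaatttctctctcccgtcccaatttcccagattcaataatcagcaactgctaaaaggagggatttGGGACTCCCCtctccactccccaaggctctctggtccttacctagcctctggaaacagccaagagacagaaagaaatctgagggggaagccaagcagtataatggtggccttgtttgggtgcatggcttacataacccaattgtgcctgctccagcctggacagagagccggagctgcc
Slpi: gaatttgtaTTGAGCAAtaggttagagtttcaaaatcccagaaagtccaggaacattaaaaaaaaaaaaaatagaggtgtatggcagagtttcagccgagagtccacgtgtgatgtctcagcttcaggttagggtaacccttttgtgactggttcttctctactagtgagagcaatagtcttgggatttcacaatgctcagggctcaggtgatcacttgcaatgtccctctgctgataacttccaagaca
The motifs searched were the NF-kB consensus by name, TTGCNNAA for C/EBP, TGANTCA for AP-1 and TTCNNNGAA for STAT factors on both strands, and TATAAA on the strand of the gene. The Lcn2 promoter held 1 match, the C/EBP motif TTGCTCAA, 216 to 209 bases before the start. The Slpi promoter also held 1 match, the C/EBP motif read on the other strand as TTGAGCAA, 241 to 234 bases before the start. The Chil1 promoter held 1 match, the NF-kB consensus as GGGACTCCCC, 179 to 170 bases before the start. No match overlapped another, and none of the 3 windows held the AP-1, STAT or TATA letters. Among 32851 mouse promoters of the same length, 9.6% held the C/EBP motif, 3.9% the NF-kB consensus, 6.7% the AP-1 motif, 7.0% the STAT motif and 7.6% TATAAA. G and C made up 56.4% of the Lcn2 window, 51.6% of the Chil1 window and 42.0% of the Slpi window, against a median of 52.4% over all these promoters. A match describes letters and does not show binding, and the search covers these windows only.

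The values are log2 signals of single-colour arrays with biotin-labelled total RNA. Array medians lay between 4.49 and 4.57 and lower quartiles between 3.33 and 3.39, so the arrays were on a like scale. Correlations over probe sets were 0.997 to 0.998 within a genotype and 0.994 to 0.996 between genotypes. The median standard error of a log2 difference was 0.07 with 4 arrays per group. Limma called 827 of the 9294 genes (8.9%) at an adjusted p under 0.05, with 412 lower (4.43%) and 415 higher (4.47%) in KO RAS. With arrays centred on their medians the split was 314 lower and 482 higher. No detection calls were used, so a low signal could not be told from background, and signals of different probe sets are not compared with each other.

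Lcn2 had the largest fall in signal of all 9294 genes. Its log2 signals were 3.52, 3.10, 3.17 and 2.94 in KO RAS replicates 1 to 4, against 7.01, 6.48, 6.77 and 6.70 in WT RAS replicates 1 to 4. Every KO RAS array was below every WT RAS array, with a gap of 2.96 between the highest KO and the lowest WT value. The means were 3.18 ± 0.24 in KO RAS and 6.74 ± 0.22 in WT RAS (SD, n = 4 each), a log2 difference of -3.56 ± 0.13 (SE). On the linear scale 8.50% of the WT signal was left in KO cells. Of the KO arrays, 3 of 4 were below their own lower quartile, so this percentage describes the signal and not how much Lcn2 RNA remained. The WT values lay above the array medians on all 4 arrays. In bulk RNA, fewer cells that make a transcript and less of it per cell cannot be told apart.

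Chil1 kept 45.8% of its WT signal in KO cells. Its log2 signals were 6.72, 6.75, 6.64 and 6.65 in KO RAS replicates 1 to 4, against 7.87, 7.69, 7.86 and 7.84 in WT RAS replicates 1 to 4. The groups did not overlap, and the nearest values of the groups were 0.95 apart. The means were 6.69 ± 0.05 in KO RAS and 7.82 ± 0.08 in WT RAS (SD, n = 4 each), a log2 difference of -1.13 ± 0.06 (SE). Unlike the KO signal of Lcn2, both groups of Chil1 lay above the array medians. It ranked 23rd among all genes ordered from the largest fall.

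Slpi kept 52.0% of its WT signal in KO cells. Its log2 signals were 9.77, 9.83, 9.94 and 9.92 in KO RAS replicates 1 to 4, against 10.78, 10.85, 10.87 and 10.73 in WT RAS replicates 1 to 4. The groups did not overlap, with 0.79 between the highest KO and the lowest WT value. The means were 9.87 ± 0.08 in KO RAS and 10.81 ± 0.07 in WT RAS (SD, n = 4 each), a log2 difference of -0.94 ± 0.06 (SE). All 8 arrays were above the upper quartile of their signals. It ranked 41st among all genes ordered from the largest fall. Groups that did not overlap were found for 15.9% of all genes, and for 7.97% with KO RAS lower. The 3 genes were picked on this contrast, so nothing is read from their all being among them.

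**Figure D1:**
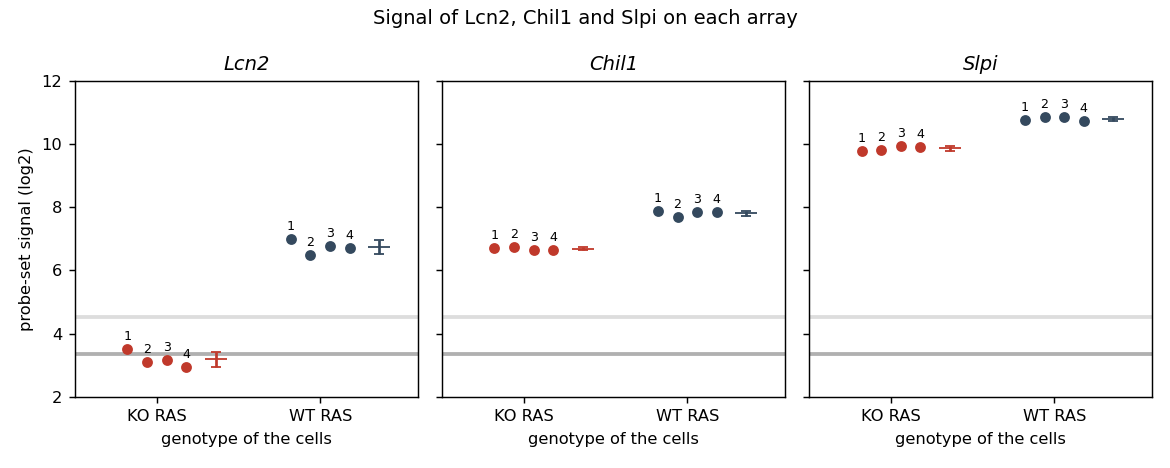
Log2 probe-set signal (vertical axis) of Lcn2, Chil1 and Slpi in the 4 KO RAS arrays (left in each panel) and the 4 WT RAS arrays (right), numbered by replicate, with the mean and SD as a line and bar. Grey bands show the ranges of array lower quartiles (3.33 to 3.39, dark) and array medians (4.49 to 4.57, light). Lcn2 falls to the lower band in KO RAS while Chil1 and Slpi stay above both bands, and heights of different genes are not comparable.

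The 3 genes differed in how far replicates of a genotype spread. The SD of Lcn2 was 0.24 in KO RAS and 0.22 in WT RAS, against medians of 0.11 (1936 genes) and 0.08 (845 genes) for genes within 0.5 of its mean signal in that group. For Chil1 the SD was 0.05 in KO RAS and 0.08 in WT RAS, against 0.08 and 0.07 for genes of like signal. For Slpi it was 0.08 in KO RAS and 0.07 in WT RAS, against 0.04 and 0.05. Lcn2 thus varied most, in both genotypes. Slpi also varied more than genes of like signal in both genotypes. Chil1 varied less than such genes in KO RAS and slightly more in WT RAS.

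Arrays differed in whether the 3 genes deviated from their genotype means in the same direction. WT RAS replicate 3 was above the WT mean for all 3, by 0.03 for Lcn2, 0.04 for Chil1 and 0.07 for Slpi. KO RAS replicate 1 was the highest KO array for Lcn2, 0.34 above the KO mean, and the lowest for Slpi, at -0.10 from it. WT RAS replicate 2 was the lowest WT array for Lcn2 and Chil1, at -0.26 and -0.12 from the WT means, and was 0.04 above the WT mean for Slpi. With 4 arrays per genotype, a correlation between the genes within a genotype was not computed, and the deviations are given as values only.

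The genes most like each of the 3 were found from their values minus the WT RAS mean, by the root mean square difference over the 8 arrays. These genes were picked for the same contrast, so their differences are descriptions too. Nearest to Lcn2 was Il1f6, which encodes IL-36 alpha, an epithelial member of the interleukin-1 family, at a distance of 0.44. Its signals were 5.53, 5.87, 5.54 and 4.83 in KO RAS, against 8.40, 8.53, 8.67 and 8.58 in WT RAS. The cornified envelope genes Sprr2f and Sprr2d followed at larger distances of 0.85 and 0.87. Lcn2 had no neighbour as near as those of Chil1 and Slpi, whose nearest genes lay at 0.05 and 0.07. The distance includes the difference between the genotypes. Lcn2 had the largest fall of all genes, -3.56 against -3.11 for Il1f6 as the next. Its larger distances follow at least in part from that rank and are not read as a trait of Lcn2.

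Chil1 had closer companions. Nppb, the gene of the B-type natriuretic peptide, was at a distance of 0.05, with 8.89 ± 0.03 in KO RAS and 10.04 ± 0.03 in WT RAS (SD, n = 4 each). S100a8, a subunit of the antimicrobial protein calprotectin, was at 0.10, and Twist2, a transcription factor gene used here as a fibroblast marker, was at 0.12. Nearest to Slpi were Nrg1, which encodes the ERBB ligand neuregulin-1, at 0.07, P3h2, a collagen prolyl hydroxylase gene, at 0.08, and Il1a, the gene of interleukin-1 alpha, at 0.08. Il1a had 9.63, 9.52, 9.52 and 9.65 in KO RAS, against 10.49, 10.49, 10.54 and 10.40 in WT RAS. Genes that differ by like amounts are near each other by this measure whatever they do.

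**Figure D2:**
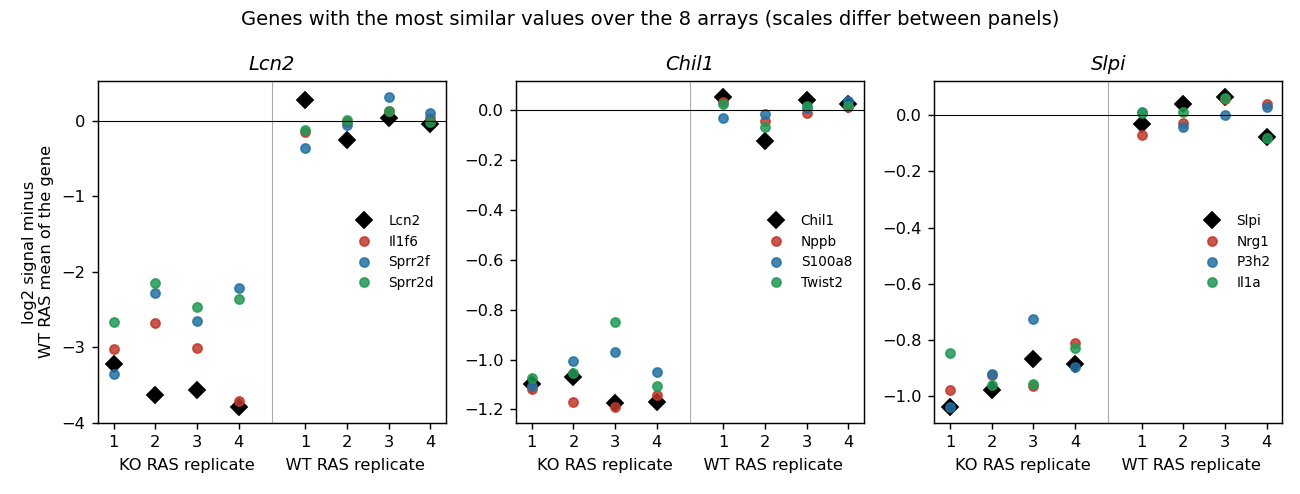
Log2 signal minus the WT RAS mean of the gene (vertical axis) on the 4 KO RAS and 4 WT RAS arrays for each of Lcn2, Chil1 and Slpi (black diamonds) and its 3 nearest genes (coloured points). Points of Nppb nearly cover those of Chil1 (distance 0.05), while the Sprr2 genes lie above Lcn2 in all KO RAS arrays except replicate 1 of Sprr2f.

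Other secreted antimicrobial and acute-phase genes were compared as a list that leaves out the 3 genes. Of 25 measured among 38 listed symbols, limma called 9, of which 8 fell and 1 rose, and 16 were not called. Over all genes 4.43% fell. The list was chosen with earlier results of these data known, so its larger share is not read as a result. The list's median log2 fold change was -0.05, against -0.01 over all genes. The calprotectin genes moved most. S100a8 had 10.80, 10.90, 10.94 and 10.86 in KO RAS, against 11.88, 11.89, 11.92 and 11.95 in WT RAS, a log2 fold change of -1.03 ± 0.05 (SE; limma adjusted p = 4.29e-07). Its probe set carries the suffix _s_at and can bind more than 1 transcript. S100a9, the partner of S100a8, fell by 0.85 ± 0.07 on the log2 scale (limma adjusted p = 2.00e-05).

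Defb6, a beta-defensin gene, had 4.62 ± 0.14 in KO RAS and 5.44 ± 0.10 in WT RAS (SD, n = 4 each; limma adjusted p = 5.14e-05). Ptx3, which encodes the soluble pattern receptor pentraxin-3, fell by 0.45 ± 0.09 (limma adjusted p = 0.00817), and Saa3, an acute-phase serum amyloid gene, by 0.44 ± 0.10 (limma adjusted p = 0.0220). The signals of these genes were low, and 15 of the 25 members had a KO mean below the array medians. The other called members were Defb3, Defb4 and Pglyrp1, which fell, and Pglyrp2, which rose, all named after their values were seen. Without WT RAS replicate 4 only 5 members were called, all lower, and Saa3 lost its call without WT RAS replicate 2 or 4 or KO RAS replicate 2 or 4 (adjusted p up to 0.0657). Defb3 lost its call whichever array was left out other than KO RAS replicate 4, Pglyrp2 whichever other than KO RAS replicate 2 or WT RAS replicate 1, and Pglyrp1 without WT RAS replicate 4.

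Relatives of lipocalin-2 and genes of iron handling formed the next list. Of 15 measured among 36 listed, limma called 3, of which 2 fell and 1 rose, and 12 were not called. Over all genes 8.9% were called and 4.43% fell. This list too was chosen with earlier results known, and its share is not read as a result. The median log2 fold change of the list was 0.01. Ltf, which encodes the secreted iron-binding protein lactoferrin, had 4.95, 4.77, 4.93 and 5.28 in KO RAS, against 6.11, 6.07, 5.88 and 6.42 in WT RAS. Its groups did not overlap and its log2 fold change was -1.14 ± 0.12 (SE; limma adjusted p = 0.000133). Orm1, a lipocalin of the acute phase, fell by 0.46 ± 0.11 (limma adjusted p = 0.0230), and Ireb2, an iron-sensing RNA-binding protein gene, rose by 0.19 ± 0.05 (limma adjusted p = 0.0455). Slc22a17, a receptor gene for lipocalin-2, had 5.54 ± 0.17 in KO RAS and 5.53 ± 0.14 in WT RAS (SD, n = 4 each; limma adjusted p = 0.989). Ltf was the only member called without WT RAS replicate 1, 2 or 3 or KO RAS replicate 1 or 4, and Ireb2 lost its call whichever array was left out, with repeated quantile normalization and with the replicate number as a block.

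Among the chitinase family and receptors of the Chil1 protein, 8 of 18 listed symbols were measured. None passed the limma test with adjustment over all genes, against 8.9% of all genes. With 8 genes, no call is little different from that share. An unadjusted limma p under 0.05 was found for 3 of the 8, against 1932 of the 9294 genes tested. The log2 fold changes ran between -0.19 and 0.15. Chit1, the gene of the active chitinase chitotriosidase, had 8.01 ± 0.06 in KO RAS and 7.86 ± 0.09 in WT RAS (SD, n = 4 each; limma adjusted p = 0.193), and its groups overlapped. Il13ra2, a receptor of the Chil1 protein, had 3.87 ± 0.15 in KO RAS and 4.03 ± 0.12 in WT RAS (SD, n = 4 each; limma adjusted p = 0.328), both below the array medians. Chia1, an acidic chitinase gene chosen with its values known, showed a log2 fold change of -0.19 ± 0.06 (limma adjusted p = 0.0640) and passed without WT RAS replicate 2.

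Relatives of Slpi in the WAP family were listed with genes of protease control. Of 25 measured among 43 listed, limma called 3, of which 2 fell and 1 rose, and 22 were not called, beside 8.9% called over all genes. The median log2 fold change of the list was -0.02. Wfdc2, a WAP-domain gene like Slpi, had 8.70, 8.48, 8.64 and 8.82 in KO RAS, against 8.28, 8.28, 8.35 and 8.35 in WT RAS. It rose by 0.35 ± 0.07 on the log2 scale (SE; limma adjusted p = 0.00909), while Slpi was lower in the same arrays. Spink5, the inhibitor of epidermal kallikreins, fell by 0.50 ± 0.08 (limma adjusted p = 0.00251). Klk7, a kallikrein protease of the outer epidermis, fell by 0.30 ± 0.06 (limma adjusted p = 0.0123). Elane and Ctsg, the leukocyte proteases that Slpi inhibits, were chosen with their values known and differed by -0.03 and 0.02 (log2; limma adjusted p = 0.931 and 0.937), with signals below the array medians in both groups.

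**Figure D3:**
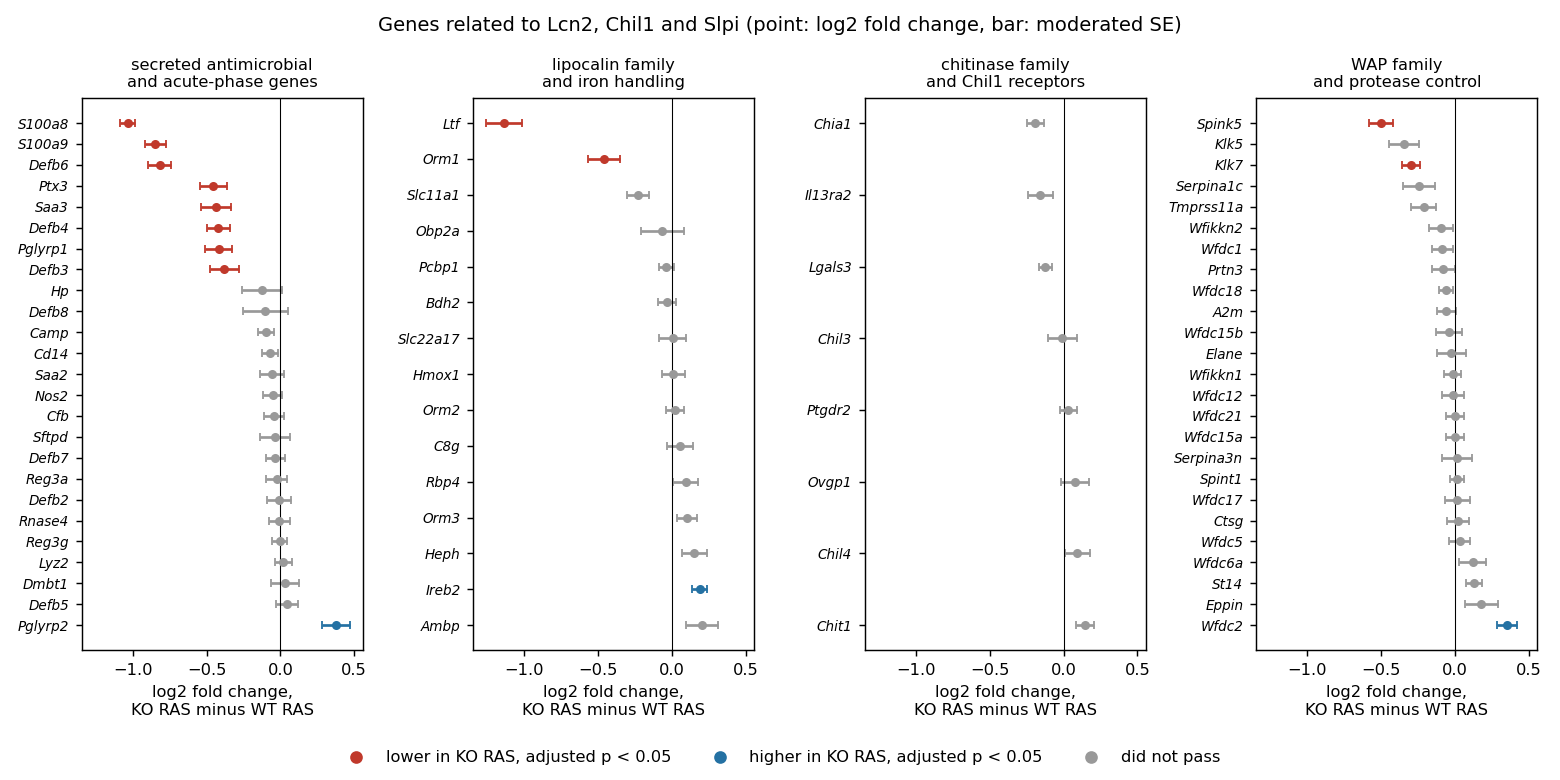
Log2 fold change, KO RAS minus WT RAS (horizontal axis), with its moderated SE for the measured members of 4 lists related to Lcn2, Chil1 and Slpi, which are left out. Red points passed an adjusted p of 0.05 as lower, blue as higher, and grey did not pass. The 8 red points of the antimicrobial list run between -1.03 and -0.38, and no member of the chitinase list passed.

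Factors, receptors and adaptors known to drive or restrain this kind of gene were measured for 11 of 35 listed symbols. Limma called 3 as lower and 3 as higher, which is 54.5% against 8.9% of all genes, and 5 were not called. The list was chosen with earlier results of these data known. None of the 11 had a KO mean below the array medians, while the share of all genes includes dim genes. The larger share is therefore not read as a result. Their median log2 fold change was -0.18. Il22ra1, a receptor subunit for the epithelial cytokine IL-22, had 5.22 ± 0.10 in KO RAS and 5.82 ± 0.04 in WT RAS (SD, n = 4 each; limma adjusted p = 8.60e-05). Cebpa, a C/EBP factor of keratinocyte differentiation, fell by 0.43 ± 0.06 on the log2 scale (limma adjusted p = 0.000637). Traf3ip2, which encodes the IL-17 receptor adaptor Act1, fell by 0.32 ± 0.05 (limma adjusted p = 0.00141). The NF-kB subunit gene Relb rose by 0.64 ± 0.09 (limma adjusted p = 0.000922), and Nfkbid, a relative of Nfkbiz, by 0.46 ± 0.09 (limma adjusted p = 0.00598). The third gene that rose was Rela, named after its values were seen, and its call was lost without KO RAS replicate 1 or WT RAS replicate 1 or 2 and with the replicate number as a block. With repeated quantile normalization 10 of the 11 were called, 7 lower and 3 higher.

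The nearest tested genes on each chromosome were compared to see whether whole regions moved with Lcn2, Chil1 and Slpi. These were 18 genes, 3 on each side of each gene in the order of a GRCm38.p6 gene table. Limma called 1 as higher and none as lower (5.6% called), against 8.9% of all genes called and 4.43% called lower. An unadjusted limma p under 0.05 was found for 2 of the 18, against 1932 of the 9294 genes tested. With 18 genes, calls so close to the share of all genes do not show whether regions moved. The 17 that were not called had log2 fold changes between -0.16 and 0.15. Ptges2, a prostaglandin E synthase gene next to Lcn2 with no protein-coding gene between, had 7.06 ± 0.02 in KO RAS and 7.14 ± 0.08 in WT RAS (SD, n = 4 each; limma adjusted p = 0.461). On the other side of Lcn2, Ciz1 had a log2 fold change of 0.11 ± 0.06 (SE; limma adjusted p = 0.335).

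Chil1 lies directly between Chit1, described above, and Mybph, a myosin-binding protein gene with a log2 fold change of -0.06 ± 0.10 (limma adjusted p = 0.813). Next to Slpi, the seminal vesicle secretory genes Svs6, Svs3a and Svs4 had low signals that differed by 0.06, -0.14 and 0.03 (log2; limma adjusted p = 0.722, 0.505 and 0.890). Matn4, a matrilin gene on the other side of Slpi, had -0.05 ± 0.08 (limma adjusted p = 0.763). The neighbour that rose was Wfdc2, which lies on the same chromosome as Slpi with 7 protein-coding genes between.

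**Figure D4:**
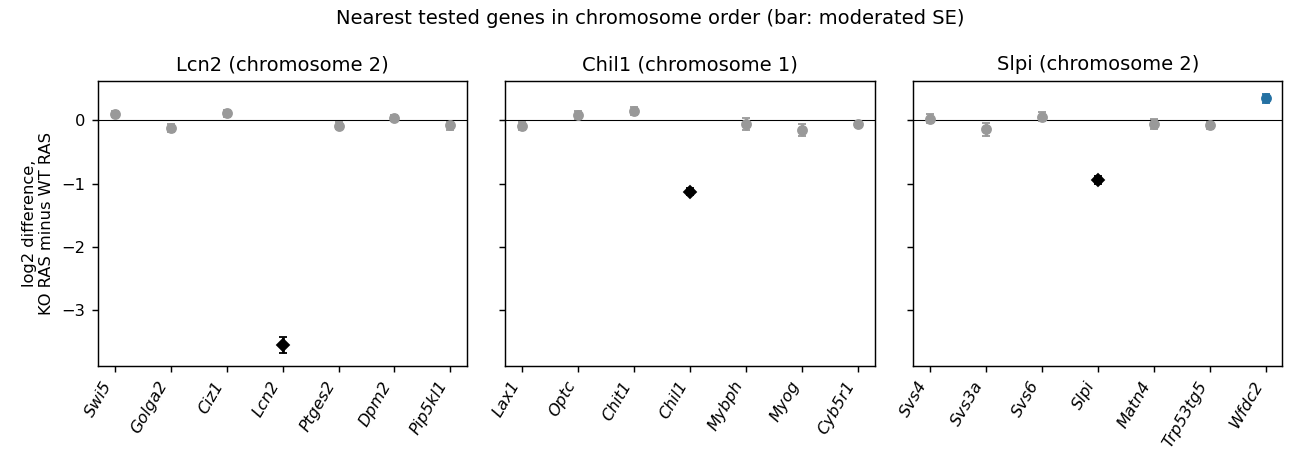
Log2 difference, KO RAS minus WT RAS (vertical axis), with its moderated SE for Lcn2, Chil1 and Slpi (black diamonds) and the 3 nearest tested genes on each side in chromosome order. Grey points did not pass an adjusted p of 0.05, and the blue point is Wfdc2. The 17 grey points lie between -0.16 and 0.15.

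Markers of the labelled cell type were compared by signal only, since no detection calls were used. Of 20 keratinocyte markers 13 were measured, none with a KO mean below the array medians, and Krt5, the basal keratin, had 13.29 ± 0.06 in KO RAS and 13.42 ± 0.03 in WT RAS (SD, n = 4 each; limma adjusted p = 0.167). The early differentiation keratin Krt1 had 6.61 ± 0.21 in KO RAS and 6.61 ± 0.09 in WT RAS (limma adjusted p = 0.996, n = 4 each). The groups of Krt5 did not overlap, as for 15.9% of all genes. Limma called 1 of the 13 markers (7.7%), as lower, against 8.9% of all genes called and 4.43% called lower. The log2 of the markers' summed signal was 15.00 to 15.09 in KO RAS and 15.05 to 15.10 in WT RAS.

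Marker lists of 3 other cell types were set beside the share of all genes called, 8.9% in either direction and 4.43% lower. Of 15 measured leukocyte markers among 24 listed, Tyrobp fell and 14 did not pass (6.7% called), 11 had means below the array medians in both groups, and their log2 summed signal was 8.29 to 8.34 in KO RAS and 8.37 to 8.58 in WT RAS. Tyrobp, a myeloid adaptor gene named after its values were seen, lost its call whichever array was left out other than WT RAS replicate 4. The median log2 fold change of the leukocyte list was -0.09, with members between -0.29 and 0.04. An unadjusted limma p under 0.05 was found for 5 of the 15, against 1932 of the 9294 genes tested. The KO RAS and WT RAS ranges of the leukocyte summed signal did not overlap. The myeloid integrin gene Itgam, named after its values were seen, had 2.90 ± 0.13 in KO RAS and 2.91 ± 0.19 in WT RAS (SD, n = 4 each). Its difference was among the smallest of the list. Of 9 measured fibroblast markers among 15 listed, 7 fell, 1 rose and 1 did not pass (88.9% called), with a median log2 fold change of -0.50. Their log2 summed signal was 9.77 to 9.97 in KO RAS and 10.28 to 10.40 in WT RAS. Of 3 measured melanocyte markers among 8 listed, 1 fell and 2 did not pass (33.3% called), with a log2 summed signal of 11.09 to 11.39 in KO RAS and 11.46 to 11.53 in WT RAS. The part of these cells in the differences of Lcn2, Chil1 and Slpi was not tested.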

How the data were processed

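The authors' deposited table gave each of 8 arrays a value for every probe set. No source states the scale. The deposited values, between 1.57 and 13.9, were treated as log2 signals, and how they were summarised and normalized is not given in the sources used here. Per the labels' protocols, RNA was extracted with Trizol and purified on a Qiagen column before biotin labelling.

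Of 11373 probe sets, 9374 had 1 gene symbol, 479 several and 1520 none in the platform annotation. A gene was represented by its single-symbol probe set with the highest mean. Of 9294 genes, 9201 matched a GRCm38.p6 gene table by Entrez identifier, which gave current symbols and gene order. KO RAS and WT RAS were compared with lmFit and eBayes of limma 3.58.1 (R 4.3.3), without covariates, with Benjamini-Hochberg adjustment over the 9294 genes and a threshold of 0.05. "Rose", "fell" and "called" refer to that test. P-values set the genotype difference against the spread between the labelled biological replicates, which eBayes moderates over all genes. Precision is limited by the number of arrays.

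The 3 genes and the lists were chosen with earlier results of these data known. The 48 genes named by rule are the 3 genes and up to 5 called members with the largest change of each related list. They also include the 3 nearest tested genes on each side, the 3 nearest patterns and 10 fixed genes where measured. Further genes, marked in the text as named with their values known, are not among the 48. On data simulated for this comparison with 9294 genes, limma recovered 38.5% of genes changed 1.2-fold, 92.4% changed 1.5-fold and 99.7% changed 2-fold. Of the calls, 5.65% were false. A change near 1.2-fold would thus often be missed. The simulation drew genes independently and changed 200 per run, fewer than the 827 called here. Alternatives were repeated quantile normalization, median centring, leaving out the lowest 25% of genes, averaging probe sets, an intensity trend, the replicate number as a block, and leaving out each array. Promoter sequences are from RefSeq, GRCm38.p6, and all 3 genes matched by symbol.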

Additional observations from a re-analysis of the deposited data

Results flagged for a closer look

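In 5 of 96 groups of 4 arrays, over 48 named genes, the lowest or highest array lay far from the other 3 (a gap to the nearest above Dixon's critical share of the whole range), and chance alone marks about 1 group in 20. Chil1 had 7.69 in WT RAS replicate 2, below 7.84 to 7.87 in the other WT RAS arrays, and still above every KO RAS array. Twist2, one of the genes most like Chil1, also had its low WT value, 8.44, in WT RAS replicate 2. It was picked for values near those of Chil1 on the same arrays, so nothing is read from this match. Relb was highest in the WT RAS group in replicate 4, with 6.97. Orm1 was lowest in the WT RAS group in replicate 4, with 6.12. Lax1, a neighbour of Chil1 with a signal below the array medians, was lowest in the WT RAS group in replicate 1, with 2.72.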

How the results depend on the processing

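The log2 differences of Lcn2, Chil1 and Slpi kept their direction and moved by less than the spread between replicates in every alternative run for them, which leaves out the intensity trend since it changes the variance and not the difference, with ranges over arrays left out of -3.67 to -3.47, -1.17 to -1.11 and -0.97 to -0.91. Of the 45 other genes named by rule, 40 kept their call in all alternatives and Saa3, Orm1, Ireb2, Swi5 and Krt5 did not. Genes named with their values known are not in this count. Among those, Defb3, Pglyrp1, Pglyrp2, Rela, Tyrobp and Chia1 also changed their call in at least 1 alternative. With the intensity trend, 5 WAP and protease genes, 10 inputs and regulators, 4 keratinocyte markers, 3 melanocyte markers, 2 neighbours, 1 chitinase family member and 0 leukocyte markers (5 at an unadjusted p under 0.05) were called in limma. Repeated quantile normalization gave 10 inputs and regulators and 0 leukocyte markers, median centring also 0 leukocyte markers (5 unadjusted in both, limma), and leaving out the lowest 25% of genes 1 chitinase family member. Leaving out each array gave 5 to 8 antimicrobial, 1 to 3 lipocalin and iron, 0 to 1 chitinase family and 0 to 2 leukocyte genes, and 598 to 687 over all genes. The replicate numbers in the labels do not say whether same-numbered arrays of the genotypes were paired. Correlations of deviations were -0.05 to 0.09 for same-numbered arrays and -0.10 to 0.11 for differently numbered ones. With the replicate number as a block, the SE of the Lcn2 difference was 0.07 in place of 0.13. Those of Chil1 and Slpi were 0.06 with and without the block. The replicate block gave 659 called genes in place of 827 and 0 keratinocyte markers in place of 1 (2 unadjusted, limma), and ended the calls of Ireb2 (limma adjusted p = 0.114), Rela and Pglyrp1. The causes were not tested. Signals near the lower quartile limit what can be said of Lcn2 in KO RAS.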
